A study of Rattus norvegicus with 36 samples.

Results

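The genes described here are 6 members of the integrated stress response, the program by which a cell short of amino acids, oxygen or folding capacity slows protein synthesis: Chac1, Ddit3, Asns, Trib3, Mthfd2 and Ppp1r15a. They were chosen by name from the array annotation. Of these 6 genes, 4 had a named array feature: Chac1, Mthfd2 and Ppp1r15a with 1 feature each and Asns with 2, giving 5 features among 9911 on the array, whose names cover 6444 genes. Ddit3, which encodes the transcription factor CHOP, and Trib3, a pseudokinase that restrains the program, had no named feature, nor had Atf4, so their expression was not analysed here.

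In the integrated stress response, kinases that sense different stresses phosphorylate the translation factor eIF2α. General protein synthesis then falls, while translation of the transcription factor ATF4 rises, and ATF4 induces amino acid enzymes, amino acid transporters, tRNA synthetases and, with CHOP, genes that tilt the cell towards recovery or death. In the kidney the energy-demanding proximal tubule is the main site of injury after loss of blood flow and after mercury or cisplatin, which it takes up.

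The kidneys came from 31 male rats, 6 to 8 weeks old, whose RNA was read on 36 single-colour CodeLink arrays. The 5 normal rats were untreated. In the ischemia groups, blood flow to both kidneys was stopped for 40 min and restored for 2 h in 4 rats and for 8 h in 3. Another 3 rats with 2 h of reperfusion were given αMSH intravenously, 50 µg of this melanocyte-stimulating peptide, which dampens inflammation. Mercuric chloride (HgCl2), 4 mg/kg under the skin, was given to 3 rats studied at 2 h and 3 at 8 h, and cisplatin, 20 mg/kg, to 3 rats studied at 2 h. The remaining controls were 3 rats at 8 h after 40 min of sham surgery and 4 volume-depleted rats, given furosemide at 20 mg/kg at the start and at 8 h with a diet low in sodium and studied at 24 h. RNA came from a portion of each kidney, so a change can reflect fewer cells of a type or less RNA per cell, which cannot be told apart.

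Levels are intensities relative to the median feature of the array, so a level of 1 is that median. They are comparable for 1 feature between rats of the same array lot but not between features. Across the 2 lots, described below, levels also hold any difference between lots, such as -0.50 on the log2 scale for Ppp1r15a in normal rats. Levels under 0.1 were set to 0.1, the floor. The arrays were read as 2 lots, and sham, cisplatin and 8 h mercuric chloride rats were compared with normal rats 11 and 12, all other groups with normal rats 1 to 3. A change is called where its Benjamini-Hochberg adjusted p in limma, over all features tested, was under 0.05, and changes are given on the log2 scale with their SE. Between groups of different lots, a difference is that of the changes from each lot's own normal rats. The array of sham rat 3 was deposited 2 lines out of step and was realigned, which brought its correlation with the median profile of all others to 0.9843. By that measure 3 arrays stood apart from their groups: ischemia 8 h rat 3 (0.9166), normal rat 1, and 1 of the 2 arrays from volume-depleted rat 1. Between the 2 arrays of a rat (5 rats) the median difference was 0.18 for Chac1, 0.06 for Mthfd2, 0.19 and 0.11 for the Asns features and 0.23 for Ppp1r15a, and the number of arrays limits the precision of every value.

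The upstream sequences of Chac1 and Ppp1r15a are shown because they are the measured members whose windows held a match to recognition letters of this program. ATF4 acts through C/EBP-ATF response elements, whose core was searched as TGATGNAA and, in a variant, TGACGNAA, and related factors act through the cyclic AMP response element TGACGTCA. Capitals mark matches to these motifs on either strand, and the stretches are from RefSeq on build GRCr8, at chr3:126795881-126795991 on the plus strand for Chac1 and chr1:105139635-105139702 on the minus strand for Ppp1r15a.
Chac1: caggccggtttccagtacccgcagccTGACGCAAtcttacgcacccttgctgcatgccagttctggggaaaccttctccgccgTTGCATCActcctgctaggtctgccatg
Ppp1r15a: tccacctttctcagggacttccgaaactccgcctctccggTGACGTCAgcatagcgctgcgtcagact
Counting the base before the start site as -1, Chac1 held a TGACGCAA at positions -224 to -217 and, on the opposite strand, a TGATGCAA at -167 to -160. In Ppp1r15a the cyclic AMP response element lay at -66 to -59. The antioxidant response element core, searched as TGACNNNGC, matched the opposite strand of Ppp1r15a at -51 to -43, outside that element and not in capitals. Trib3, with no measured feature, held a TGATGTAA on the opposite strand at -21 to -14. Asns, Mthfd2 and Ddit3 held no match to these 4 motifs in their windows, which run from 250 bases before to 50 after the start. That says only that these letters are absent there. The Asns window, chr4:36769366-36769665, lay inside the annotated gene, whose outer start on the minus strand is 36769970. For Asns the sequence upstream of that outer start was not searched. Over both strands of 33469 rat promoters of the same length, TGATGNAA occurred in 3.98%, TGACGNAA in 1.97%, TGACGTCA in 1.83% and TGACNNNGC in 12.1%. The matches describe sequence and were not tested for function.

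Chac1 encodes an enzyme that breaks down glutathione and is a target of ATF4 and CHOP. Its level in normal rats 1, 2 and 3 was 0.213, 0.194 and 0.158, and in normal rats 11 and 12 it was 0.185 and 0.198. In the 4 ischemia 2 h rats it was 3.08, 2.26, 3.43 and 4.21. The αMSH rats lay close to them at 2.54, 2.72 and 2.63. At 8 h of reperfusion the level was 1.54, 1.93 and 1.53. The mercuric chloride rats were the highest of all, with 11.8, 14.4 and 8.37 at 2 h and 7.65, 8.86 and 6.45 at 8 h. Every rat of these 5 groups lay above every normal, sham, cisplatin and volume-depleted rat. In cisplatin rats the level was 0.221, 0.213 and 0.243, in sham rats 0.240, 0.224 and 0.203, and in volume-depleted rats it ran from 0.156 to 0.216.

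Chac1 rose 17-fold at 2 h of reperfusion, a change of 4.09 ± 0.18 (limma adjusted p = 4.85e-14), and 14.1-fold in the αMSH rats, 3.82 ± 0.19 (limma adjusted p = 3.66e-13). After 8 h of reperfusion it was 8.87-fold above normal, 3.15 ± 0.19 (limma adjusted p = 3.84e-12). Mercuric chloride raised it 60.3-fold at 2 h, 5.92 ± 0.19 (limma adjusted p = 3.76e-17), and 39.6-fold at 8 h, 5.31 ± 0.21 (limma adjusted p = 6.87e-15). In ischemia 2 h and in both mercuric chloride groups, Chac1 had the smallest p of all features tested. In cisplatin, sham and volume-depleted rats its changes of 0.23 ± 0.21, 0.21 ± 0.21 and 0.04 ± 0.18 did not pass the test.

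**Figure D1:**
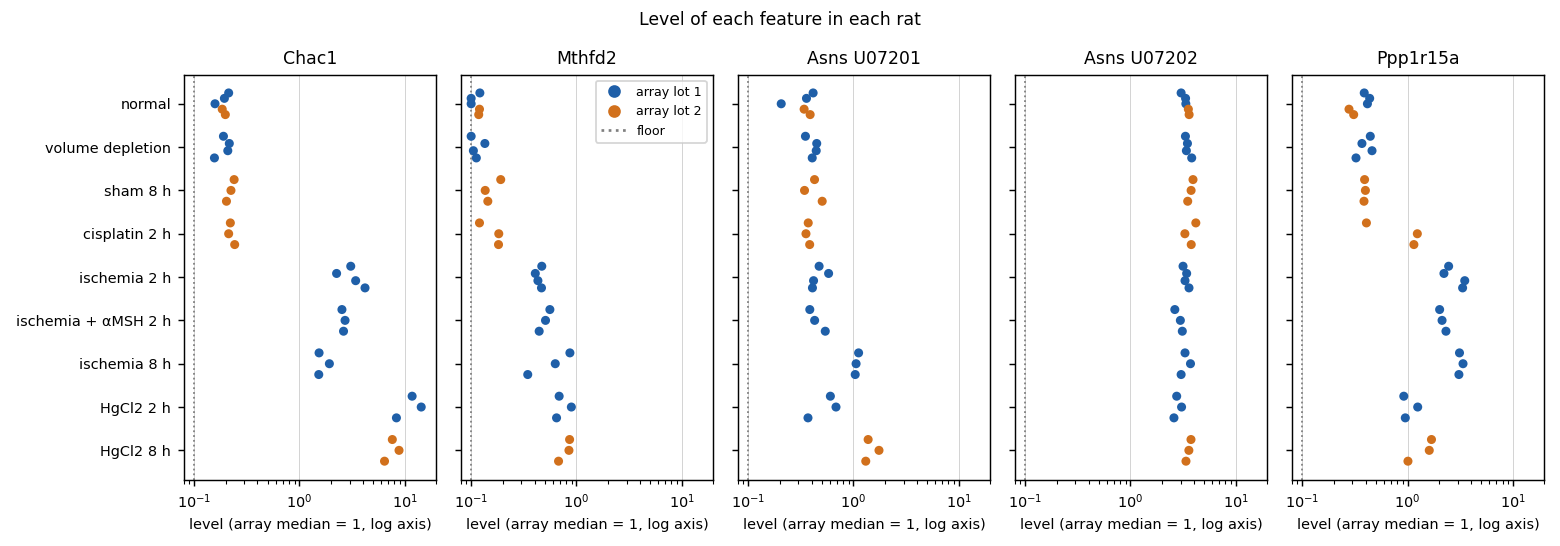
Level of each of the 5 features in each of 31 rats, as intensity relative to the array median on a log axis, 1 point per rat by group, coloured by array lot; the dotted line is the floor of 0.1. Chac1 reached 14.4 in a mercuric chloride rat against at most 0.213 in normal rats, while the Asns feature U07202 lay between 2.59 and 4.18 in all rats.

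Mthfd2 encodes a mitochondrial folate enzyme that supplies carbon units for purine synthesis and is induced by ATF4. It was dim in normal rats: rat 1 had 0.121, rats 2 and 3 were at the floor of 0.1, and rats 11 and 12 had 0.120 and 0.118. In ischemia 2 h rats it was 0.469, 0.407, 0.431 and 0.466, and in αMSH rats 0.560, 0.509 and 0.443. The ischemia 8 h rats were the most spread, at 0.868, 0.630 and 0.345, the lowest being the array that stood apart. With mercuric chloride the level was 0.686, 0.896 and 0.648 at 2 h and 0.862, 0.850 and 0.677 at 8 h. All rats of these 5 groups lay above all other rats, whose highest level was 0.191, in sham rat 1.

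Because 2 of the 3 normal rats of lot 1 were at the floor, the folds in that lot are lower bounds. Mthfd2 rose at least 4.16-fold at 2 h of reperfusion, 2.06 ± 0.21 (limma adjusted p = 1.21e-07), at least 4.71-fold with αMSH and at least 5.39-fold at 8 h, 2.43 ± 0.23 (limma adjusted p = 5.54e-09). Mercuric chloride raised it at least 6.92-fold at 2 h, 2.79 ± 0.23 (limma adjusted p = 7.55e-09), and 6.64-fold at 8 h, 2.73 ± 0.25 (limma adjusted p = 5.96e-08). The changes in cisplatin (0.41 ± 0.25), sham (0.38 ± 0.25) and volume-depleted rats (0.08 ± 0.21) did not pass.

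Asns encodes asparagine synthetase, the enzyme that makes asparagine and a standard target of ATF4 when amino acids run short. Both features are annotated as Asns through the same GenBank entry, yet they behaved differently. The feature named U07201 had levels of 0.414, 0.358 and 0.206 in normal rats 1 to 3 and 0.340 and 0.388 in normal rats 11 and 12. In ischemia 2 h rats it was 0.472, 0.581, 0.418 and 0.408, and in αMSH rats 0.385, 0.428 and 0.540. Both groups overlapped the normal rats. At 8 h it was 1.12, 1.06 and 1.04 after ischemia and 1.38, 1.75 and 1.31 after mercuric chloride, above every other rat. The 2 h mercuric chloride rats, at 0.604, 0.683 and 0.370, overlapped the normal rats.

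The U07201 feature rose 3.43-fold at 8 h of reperfusion, 1.78 ± 0.22 (limma adjusted p = 5e-07), and 4.05-fold at 8 h of mercuric chloride, 2.02 ± 0.25 (limma adjusted p = 3.84e-06). At 2 h of mercuric chloride the change was 0.78 ± 0.22 (limma adjusted p = 0.0296). That call was lost without normal rat 3 (0.48), mercuric chloride 2 h rat 1 (0.69) or rat 2 (0.60), and when only the groups compared were fitted (limma adjusted p = 0.209). At 2 h of reperfusion it was 0.58 ± 0.21 and did not pass (limma adjusted p = 0.0641), and leaving out single rats moved it from 0.27, without normal rat 3, to 0.78, without normal rat 1 (limma adjusted p = 0.0227). In αMSH rats the change of 0.52 ± 0.22 ran from 0.21, without normal rat 3, to 0.72, without normal rat 1. It passed at that upper value only without all 3 arrays that stood apart (limma adjusted p = 0.0378). The brighter feature U07202 lay between 2.59 and 4.18 in all 31 rats, with changes from normal of -0.21 to 0.11. In the main limma fit it was called in none of the 18 comparisons. Over the 26 treated rats the changes of these features had a Pearson r of -0.022. Which of them follows the transcript is not given in the sources used here.

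Ppp1r15a encodes GADD34, the subunit that directs protein phosphatase 1 to eIF2α and so ends the translational block. Its level was 0.388, 0.437 and 0.416 in normal rats 1 to 3 and lower, 0.278 and 0.308, in normal rats 11 and 12, a difference of -0.50 between the lots' means. In ischemia 2 h rats it was 2.46, 2.22, 3.50 and 3.34, and in αMSH rats 2.02, 2.13 and 2.32. After 8 h of reperfusion it was 3.12, 3.37 and 3.08. Mercuric chloride gave 0.922, 1.25 and 0.953 at 2 h and 1.69, 1.61 and 1.01 at 8 h. At 2 h these rats lay below every ischemia rat and above every normal rat. Sham rats had 0.391, 0.398 and 0.386, and volume-depleted rats 0.324 to 0.460.

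By the test, Ppp1r15a rose 6.84-fold at 2 h of reperfusion, 2.77 ± 0.26 (limma adjusted p = 1.82e-08), 5.21-fold with αMSH, 2.38 ± 0.27, and 7.71-fold at 8 h, 2.95 ± 0.27 (limma adjusted p = 5.42e-09). With mercuric chloride it rose 2.49-fold at 2 h, 1.32 ± 0.27 (limma adjusted p = 0.00332), and 4.78-fold at 8 h, 2.26 ± 0.31 (limma adjusted p = 1.51e-05). The sham change of 0.42 ± 0.31 and the volume depletion change of -0.07 ± 0.26 did not pass.

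Cisplatin called a single member, Ppp1r15a, at 2.86-fold, 1.51 ± 0.31 (limma adjusted p = 0.0173). The 3 cisplatin rats were unequal: rat 1 had a level of 0.407, rat 2 had 1.24 and rat 3 had 1.15. Of 7 stress transcription factors measured, rat 1 had the lowest change in Atf3, Fos and Jun and the highest in Cebpd, Cebpg, Nupr1 and Jdp2. Its change in Atf3 was 0.14, against 3.09 in rat 2 and 3.20 in rat 3. For Fos it was 1.44, against 5.29 and 4.65, and for Jun 0.83, against 3.06 in each of the others. For Cebpd the changes were 2.05, 1.94 and 1.87, for Nupr1 0.81, 0.54 and 0.64, for Cebpg 0.46, 0.16 and 0.12 and for Jdp2 0.43, 0.05 and -0.13. The Ppp1r15a call was lost without cisplatin rat 2 (1.23), cisplatin rat 3 (1.28), normal rat 11 (1.44) or normal rat 12 (1.59).

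**Figure D2:**
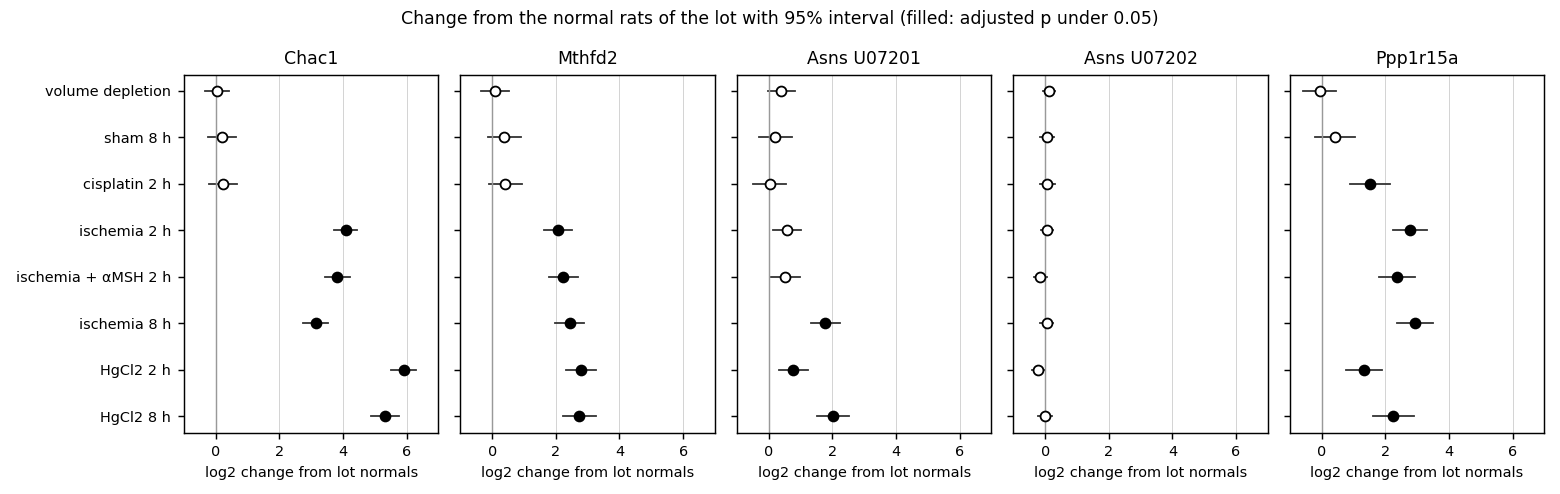
Change of each feature from the normal rats of the same array lot (log2, x axis) in the 8 treated groups, with 95% intervals from limma; filled points have an adjusted p under 0.05. Chac1 and Mthfd2 were called in the 5 ischemia and mercuric chloride groups, Ppp1r15a also in cisplatin, and Asns U07202 in no group.

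Against normal rats, 3 of the 5 features were called at 2 h of reperfusion, where 14.7% of all features were, and the same number with αMSH, where 13.2% were. At 8 h of reperfusion 4 features were called, against a background of 41.6%. With mercuric chloride 4 were called at 2 h, against 7.68%, and 4 at 8 h, against 10.9%. Cisplatin called 1, against 0.580%. In sham rats limma called 0 of 5, against 0.348%, and in volume-depleted rats 0 of 5, against 0.169%, with 0 at an unadjusted p under 0.05 in either. All of these calls were rises, and the median change of the 5 features was 2.06, 2.24, 2.43, 1.32, 2.26, 0.23, 0.21 and 0.08 in that order of groups, while the median of all features tested lay between -0.08 and 0.02.

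Against sham rats, which had surgery without ischemia, 4 features were higher at 8 h of reperfusion (background 22.9%) and 4 at 8 h of mercuric chloride (background 13.2%). Chac1 was higher by 2.94 ± 0.29 and by 5.10 ± 0.19 in these comparisons. Against volume depletion, ischemia 2 h rats had 3 features higher (background 20.1%), with Chac1 higher by 4.05 ± 0.17.

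The next question is whether ischemic and nephrotoxic injury engaged the members to the same degree. At 2 h, 3 of 5 features differed between ischemia and mercuric chloride (background 15.1%), and not in 1 direction. Chac1 was 3.55-fold lower after ischemia, -1.83 ± 0.18 (limma adjusted p = 6.57e-08). Mthfd2 was 1.66-fold lower, -0.73 ± 0.21 (limma adjusted p = 0.0183), a call lost without mercuric chloride 2 h rat 2 (-0.59). Ppp1r15a was 2.74-fold higher after ischemia, 1.46 ± 0.26 (limma adjusted p = 2.46e-04). The U07201 feature of Asns differed by -0.20, with an interval of -0.63 to 0.23. Asns U07202 differed by 0.27, with an interval of 0.07 to 0.46 (limma adjusted p = 0.0568). It passed under some alternatives, among them a floor of 0.2 (limma adjusted p = 0.0468) and fitting only the groups compared (limma adjusted p = 0.0251).

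Among the 8 h groups only Chac1 was called between ischemia and mercuric chloride, 1 of 5 features (background 11.8%). It was 4.46-fold lower after ischemia, -2.16 ± 0.29 (limma adjusted p = 1.43e-05). The difference in Ppp1r15a was 0.69, with an interval of -0.16 to 1.54, in Mthfd2 -0.30, with an interval of -1.0 to 0.40, and in Asns U07201 -0.24, with an interval of -0.92 to 0.45. These groups lay in different array lots, and the value for Mthfd2 is a lower bound, as its lot 1 normal rats were at the floor in 2 of 3.

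Cisplatin at 2 h stood apart from both other injuries in Chac1 and Mthfd2. Ischemia 2 h rats had 2 of 5 features higher than cisplatin rats (background 2.20%): Chac1 by 3.85 ± 0.28 (limma adjusted p = 4.29e-09) and Mthfd2 by at least 1.64 ± 0.33 (limma adjusted p = 0.00533). Mercuric chloride 2 h rats also had 2 higher (background 0.951%): Chac1 by 5.68 ± 0.29 (limma adjusted p = 1.32e-12) and Mthfd2 by at least 2.38 ± 0.34 (limma adjusted p = 3.22e-04), both lower bounds because of the normal rats at the floor. In Ppp1r15a the mercuric chloride and cisplatin groups differed by -0.20, with an interval of -1.04 to 0.65. Ischemia exceeded cisplatin in Ppp1r15a by 1.26 ± 0.40 and did not pass (limma adjusted p = 0.113), and it was 0.74 without cisplatin rat 1 and 1.55 without cisplatin rat 2, where it passed (limma adjusted p = 0.0381).

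**Figure D3:**
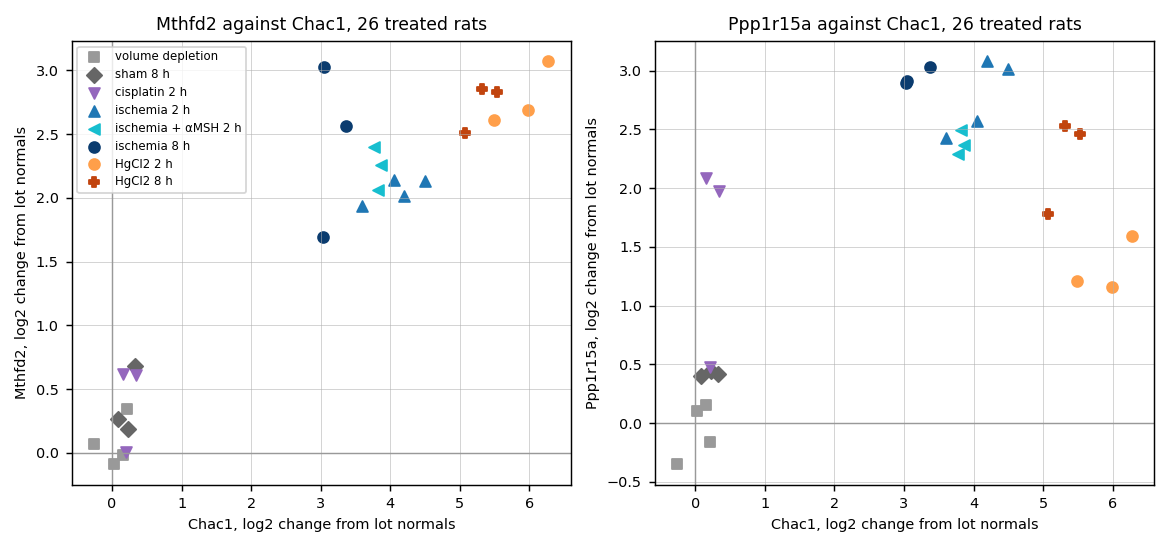
Change of Mthfd2 (left) and Ppp1r15a (right) against that of Chac1 in each of 26 treated rats, on log2 axes relative to the normal rats of the array lot, with a symbol for each group. Mercuric chloride rats lie far right for Chac1 (5.07 to 6.27), while in Ppp1r15a the 2 h mercuric chloride rats (1.16 to 1.59) lie below all ischemia rats (2.29 to 3.08).

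Between 2 h and 8 h of reperfusion 2 of 5 features were called, a share near the background of 37.7%. Chac1 fell by 0.94 on the log2 scale, SE 0.18 (limma adjusted p = 1.88e-04), while Asns U07201 rose 2.30-fold, SE 0.21 on the log2 scale (limma adjusted p = 6.14e-05). Ppp1r15a differed by 0.17, with an interval of -0.36 to 0.70. Mthfd2 differed by 0.37 ± 0.21 and did not pass (limma adjusted p = 0.17), and leaving out single rats moved it from 0.075, without ischemia 8 h rat 1, to 0.74, without ischemia 8 h rat 3, where it passed (limma adjusted p = 0.00214). The 2 h and 8 h groups of mercuric chloride lay in different array lots and those of ischemia in the same lot, so the SEs are larger for mercuric chloride. Whether the time courses of the injuries differ was not tested. After mercuric chloride limma called 0 of 5 features between 2 h and 8 h (background 0.729%), and 3 had an unadjusted p under 0.05. The values were -0.61 ± 0.29 for Chac1, 1.24 ± 0.33 for Asns U07201 (limma adjusted p = 0.0904) and 0.94 ± 0.41 for Ppp1r15a. The Asns difference passed without normal rat 3 (1.54, limma adjusted p = 0.0103) and without mercuric chloride 2 h rat 2 (1.42, limma adjusted p = 0.0484).

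With αMSH, limma called 0 of 5 features against ischemia alone, as it did over all features (background 0%), and 1 had an unadjusted p under 0.05, Asns U07202 at -0.21. The difference was -0.27 for Chac1, with an interval of -0.64 to 0.10. For Mthfd2 it was 0.18, with an interval of -0.26 to 0.62, and for Ppp1r15a -0.39, with an interval of -0.92 to 0.14.

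Ordered by mean change, Chac1 ran from mercuric chloride 2 h through mercuric chloride 8 h, ischemia 2 h, ischemia with αMSH and ischemia 8 h to cisplatin, sham and volume depletion. The ranges of neighbours overlapped except between mercuric chloride 8 h and ischemia 2 h, between ischemia with αMSH and ischemia 8 h, and between ischemia 8 h and cisplatin. Mthfd2 had a single break, between ischemia 2 h and cisplatin. Asns U07201 was led by mercuric chloride 8 h and ischemia 8 h, and those groups did not overlap each other or mercuric chloride 2 h. Ppp1r15a was led by ischemia 8 h and ischemia 2 h, and its ranges parted only between mercuric chloride 2 h and sham and between sham and volume depletion.

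Across the 26 treated rats, the changes of Chac1 and Mthfd2 had a Pearson r of 0.945 and those of Chac1 and Ppp1r15a 0.639. Those of Chac1 and Asns U07201 had 0.58, but with the other Asns feature, U07202, Chac1 had -0.498 and Mthfd2 -0.455. These describe rats that share array lots, groups and normal rats. Among 5950 other named genes, the 5 most like Chac1 were Srxn1 (r = 0.910), Hmox1 (0.910), Hspa1a (0.875), Cars1 (0.874) and Chd7 (0.857). Hmox1, heme oxygenase, rose 93.1-fold at 2 h of mercuric chloride and 10.7-fold at 2 h of reperfusion. At 8 h it was 120-fold above normal with mercuric chloride and 35.1-fold with reperfusion. Srxn1, which repairs oxidised peroxiredoxins, rose 14.2-fold and 12.7-fold at 2 h in the same order. The genes most like Mthfd2 were Srxn1 (0.933), the heat shock protein Hspa1a (0.919), Hmox1 (0.908), Tars1 (0.902) and Cars1 (0.896).

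Asns U07201 was most like Sdcbp (r = 0.932), Gars1 (0.902), Eif2s2 (0.902), Aldh18a1 (0.893) and Iars1 (0.890), over the same 26 rats. Gars1 and Iars1 are tRNA synthetases, Eif2s2 is a subunit of eIF2 and Aldh18a1 makes proline precursors. Ppp1r15a was most like a different group: Tnfrsf12a (0.952), a receptor of the tumour necrosis factor family, Pelo (0.945), Adm (0.932), Klf6 (0.909) and Plk2 (0.907). Tnfrsf12a rose 11.1-fold at 2 h of reperfusion, 5.19-fold at 2 h of mercuric chloride and 4.19-fold with cisplatin. Asns U07202 reached at most 0.696, with Cyp21a1, Aanat, Kcnh7 (0.695), Kcnj6 (0.693) and Tmbim6 (0.689).

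Aminoacyl-tRNA synthetases, which load amino acids onto tRNA and include many ATF4 targets, were mostly higher at 8 h. Of 12 measured genes, 10 rose at 8 h of reperfusion, with a list median of 0.99 against 0.01 for all features, and 11 at 8 h of mercuric chloride, with a median of 0.86 against -0.03. At 2 h, 6 rose with mercuric chloride (median 0.39) and 2 with ischemia, as with αMSH. Without the arrays that stood apart these last counts were 6 and 4. Cars1 was higher in all 5 groups, by 1.11 ± 0.14 and 1.66 ± 0.15 after ischemia at 2 h and 8 h, by 1.03 ± 0.15 with αMSH, and by 1.52 ± 0.15 and 1.24 ± 0.17 after mercuric chloride. Vars1 rose 2.76-fold at 8 h of reperfusion, Iars1 2.20-fold there, and Sars1 3.21-fold at 8 h of mercuric chloride. Tars1 and Yars1 rose 2.12-fold and 2.86-fold at 2 h of mercuric chloride. In cisplatin, sham and volume-depleted rats limma called 0 of 12 synthetases, with 0 at an unadjusted p under 0.05. For this and the later lists, the calls over all features are the background. At 8 h, 1969 of 9491 features rose and 1977 fell after ischemia, and 498 rose and 534 fell after mercuric chloride. At 2 h, of 9458 to 9491 tested, 697 rose and 698 fell with ischemia and 630 and 621 with αMSH. Mercuric chloride at 2 h gave 291 and 436. With cisplatin 51 rose and 4 fell, in sham rats 28 and 5, and in volume-depleted rats 7 and 9.

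**Figure D4:**
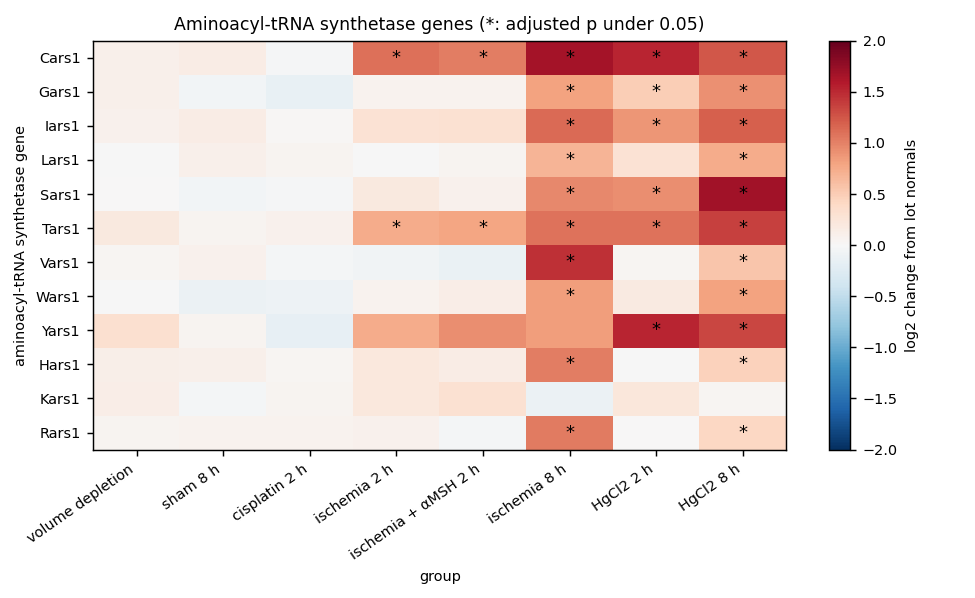
Change of 12 aminoacyl-tRNA synthetase genes (rows) from the normal rats of the array lot in 8 groups (columns), as colour on a log2 scale from -2 to 2, with an asterisk where the limma adjusted p was under 0.05. Asterisks fill 10 rows at ischemia 8 h and 11 at HgCl2 8 h, and none in volume depletion, sham and cisplatin.

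Amino acid transporters, which bring in amino acids and are partly induced by ATF4, had 4 of 8 measured genes higher at 2 h of reperfusion (median 0.68), 3 with αMSH, 5 at 8 h (median 0.93), 1 at 2 h of mercuric chloride and 4 at 8 h (median 0.87). Slc7a5, the leucine carrier, rose 1.83-fold and 3.01-fold at 2 h and 8 h of reperfusion and 2.55-fold at 8 h of mercuric chloride. Slc1a5, a glutamine carrier, rose 4.84-fold at 8 h of reperfusion. Slc38a2 rose 2.10-fold at 2 h of reperfusion and 1.87-fold at 2 h of mercuric chloride. Slc6a9, a glycine carrier, rose 2.84-fold at 8 h of mercuric chloride.

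Amino acid and folate enzymes did not move as a group. Of 11 measured, 2 rose and 6 fell at 8 h of reperfusion, with a median of -0.75, where 41.6% of all features were called. When only the groups compared were fitted, 3 fell there. The risers were Mthfd1l, a mitochondrial folate enzyme, by 2.83 ± 0.15, and Aldh18a1 by 1.85 ± 0.17. Glul, glutamine synthetase, fell 3.67-fold there. At 8 h of mercuric chloride 2 rose and 2 fell, with Aldh18a1 higher by 1.30 ± 0.19, Mthfd1l by 0.96 ± 0.17 and Psph, of serine synthesis, lower by 1.85-fold, but 0 fell there when only the groups compared were fitted. Genes of glutathione synthesis and turnover had 4 of 6 lower at 8 h of reperfusion (median -0.64), where 41.6% of all features were called. Among them were Oplah, 2.76-fold, and Gclc, 1.78-fold, but 1 gene was lower when only the groups compared were fitted. At 8 h of mercuric chloride 1 rose, Gclm, 1.55-fold, and 1 fell, Oplah, but 0 rose and 0 fell when only the groups compared were fitted. The fall was also lost with a floor of 0.05, with a still lower floor, with quantile normalization and with 1 array per rat.

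Upstream of ATF4, the RNA of the eIF2 kinases was rarely called. Eif2ak3, the kinase of the endoplasmic reticulum, had changes of -0.17 to 0.65 over the 8 groups and Eif2ak4, the amino acid sensor, -0.32 to 0.31, with no call in limma. Eif2ak1, the heme-sensing kinase, was called once, at 8 h of reperfusion, lower by 1.31-fold (limma adjusted p = 0.016). Its second feature did not pass there (-0.13, limma adjusted p = 0.487), and the first did not when only the groups compared were fitted. Among the 13 kinase and translation genes measured, 8 rose and 1 fell at 8 h of reperfusion, where 41.6% of all features were called. The risers included Eif4ebp1, a translation repressor, 4.63-fold, Eif2b3 4.10-fold and Eif2s1 2.40-fold. Without the arrays that stood apart 5 rose there, and 4 when only the groups compared were fitted. Mercuric chloride at 8 h raised 4, with Impact 2.09-fold higher, and 2 when only the groups compared were fitted.

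Stress transcription factors that act with ATF4 rose early after ischemia. Of 7 measured, 5 rose at 2 h with ischemia and 5 with αMSH, 4 at 8 h, 2 and 4 at 2 h and 8 h of mercuric chloride, 3 with cisplatin (1 when only the groups compared were fitted) and 1 in sham rats. Atf3, a partner and target of ATF4, rose 17.9-fold at 2 h of reperfusion, 13.7-fold at 2 h of mercuric chloride and 9.95-fold at 8 h. A second Atf3 feature gave larger changes, 6.58 against 4.17 at 2 h of reperfusion. With cisplatin this second feature passed (4.24, limma adjusted p = 0.0108), while the brighter one, used in the count, did not (2.145, limma adjusted p = 0.0729). Fos rose 71.4-fold at 2 h of reperfusion and 13.8-fold with cisplatin, where 1 of its 3 features did not pass (1.58, limma adjusted p = 0.114). Cebpd rose 4.74-fold in sham rats, 3.88-fold with cisplatin and 3.55-fold at 2 h of reperfusion.

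Endoplasmic reticulum chaperones, which mark the unfolded protein response, rose after ischemia in 6 of 12 measured genes at 2 h (median 0.52), 6 with αMSH and 9 at 8 h (median 0.79). Mercuric chloride raised 2 at 2 h and 1 at 8 h. Compared directly, 1 of 12 was higher in ischemia than in mercuric chloride at 2 h and 2 of 12 at 8 h, with none lower. Over all features, 15.1% at 2 h and 11.8% at 8 h were called in either direction. These chaperone counts are near that background and do not set the list apart between the injuries. Hspa5, the main chaperone of that compartment, rose 2.89-fold and 2.11-fold at 2 h and 8 h of reperfusion and 1.66-fold at 2 h of mercuric chloride. Its change at 8 h of mercuric chloride was 0.35 ± 0.21 (limma adjusted p = 0.356). Dnajb9 rose in all 5 groups and 2.40-fold with cisplatin, a call lost when only the groups compared were fitted.

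Of 7 other targets of ATF4 or CHOP measured, 4 rose at 2 h of reperfusion, with αMSH and at 8 h, where 1 fell. Mercuric chloride raised 2 at 2 h and 3 at 8 h, cisplatin 3 (0 when only the groups compared were fitted) and sham surgery 1. Gdf15, a secreted stress factor, rose 4.18-fold and 7.62-fold at 2 h and 8 h of mercuric chloride, 1.94-fold at 8 h of reperfusion and 2.76-fold with cisplatin. Cdkn1a, the p21 cell cycle inhibitor, rose 6.62-fold at 2 h of reperfusion, 5.73-fold with cisplatin and 3.45-fold in sham rats. A second Cdkn1a feature did not pass with cisplatin (1.63, limma adjusted p = 0.694) or in sham rats (0.72, limma adjusted p = 1), and the sham call was lost with no filter on dim features.

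The tissue label was checked against markers. Of 14 proximal tubule markers 9 had a feature, none of them at the floor, and their summed level was 309 to 431 in normal rats 1 to 3 and 272 to 280 in normal rats 11 and 12. It was 156 to 258 at 8 h of reperfusion and 134 to 205 at 8 h of mercuric chloride, where 6 and 4 of 8 tested markers fell. At 2 h it was 276 to 297 after ischemia and 240 to 266 after mercuric chloride. Markers of the nephron beyond the proximal tubule (8 of 11 measured, none at the floor) summed to 88.4 to 135 in normal rats 1 to 3 and 41.9 to 60.1 at 8 h of reperfusion, but to 128 to 147 at 2 h of mercuric chloride. Leukocyte markers (11 of 17 measured, Cd4 at the floor in most rats) summed to 50.3 to 67.4 in normal rats 1 to 3, 53.3 to 62.0 at 2 h and 44.8 to 70.3 at 8 h of reperfusion. Of these 11, 2 rose and 3 fell at 2 h. At 8 h of mercuric chloride they summed to 43.4 to 69.0, against 39.6 to 41.5 in normal rats 11 and 12, with 1 of 11 higher. Red blood cell markers (2 of 5 measured) summed to 0.833 to 1.41 in normal rats 1 to 3 and 1.91 to 3.39 at 2 h of reperfusion, and to 0.985 to 1.17 in normal rats 11 and 12 and 1.81 to 2.10 at 8 h of mercuric chloride. Adrenal markers (3 of 9 measured) summed to 0.55 to 0.791 in all rats, with Cyp11b1 at the floor in most. Over all rats, endothelial markers (8 of 9 measured) summed to 20.9 to 33.9, glomerular markers (4 of 6, Synpo at the floor in most rats) to 2.48 to 7.36 and fat markers (5 of 6, Plin1 and Lep at the floor in most rats) to 2.41 to 10.8. The part of these shifts in the members' changes was not tested.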

How the data were processed

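RNA from a portion of each kidney was purified with TRIZOL and RNeasy, per the labels' protocols, and hybridised to 36 CodeLink arrays. For scanner software and background correction nothing is stated in the sources used here. The deposited values are an other unit, 2 to the power of an intensity already scaled near its array median, as read from the values: 99.4% of their log2 values were multiples of 0.0001 within 0.01 of a step. The log2 of each deposited value was taken as the intensity, divided by the array median, floored at 0.1 and brought to log2. A deposited 0.5 (0.969% of values) was treated as missing. Both arrays of the 5 rats with 2 arrays were averaged, and each remaining replicate is a separate rat per the labels. Array lots follow the rule that chose the members and are not in the labels. Values of sham rat 3 were moved by 2 lines.

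Features were named from the array annotation (7229 with 1 symbol, 21 with several, 2661 with none), and a gene with several was represented in lists by its brightest. All rats were fitted together in limma 3.58.1 (R 4.3.3) with group and lot, 21 residual degrees of freedom, tested on simulated data, over 18 comparisons. P-values were adjusted within a comparison, intervals are at 95%, and replicate numbers did not pair the rats. Members and lists (kinases and translation, transcription factors, enzymes, transporters, synthetases, other targets, chaperones, glutathione, cell markers) were chosen with earlier results of these data known. Named genes were up to 3 called list genes with the largest change per comparison, Atf4, the eIF2 kinases, Ppp1r15b and Hspa5 where measured, and the 5 genes most like each member; the other Atf3 feature, the cisplatin rats' transcription factors and examples among the synthetases were named after their values were seen. Alternatives were other floors, quantile normalization, no filter, no lot, a replicate block, only the groups compared, 1 array per rat, eBayes with trend, the deposited order of sham rat 3, and leaving out arrays or rats.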

Additional observations from a re-analysis of the deposited data

Results flagged for a closer look

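In the normal rats, the Asns feature U07201 had 1 low value: rat 3 lay at 0.206 and the nearest rat at 0.340, a gap that on the log2 scale was 0.719 of the whole range over 5 rats. Each of the 5 features was examined in this way in normal, ischemia 2 h and volume-depleted rats, 15 sets in all. It was the only value flagged, and chance flags about 1 in 20 sets, so 1 among 15 is near that share. The 5 normal rats span both array lots. The call of this feature at 2 h of mercuric chloride was lost without rat 3.

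For 2 features the response to ischemia differed between time points by the test of the difference itself. That is 2 of 5, a share near the background of 37.7% of all features, so it does not set the members apart. On the log2 scale Asns U07201 was higher at 8 h than at 2 h by 1.204, and Chac1 was lower, with a difference of -0.94. Rats at 8 h also had lower summed proximal and distal tubule markers, and the part of that in these differences was not tested.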

How the results depend on the processing

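Of 354 alternative counts of members called, 338 stayed within 1.5 times the main count. With quantile normalization mercuric chloride 8 h against 2 h called 1 feature (Asns U07201), and without the lot term 3, with 2 for ischemia 8 h against mercuric chloride 8 h. Both comparisons are between array lots, so without the lot term any difference between lots counts as a change. The share of all features called under each alternative is not given here, and these counts are not read as results about the members. With a replicate block, cisplatin against normal called 0 and ischemia 2 h against cisplatin 1, losing Mthfd2 (1.53). Fitting only the groups compared left cisplatin against normal at 0. With sham rat 3 as deposited the calls were 1 for mercuric chloride 2 h against normal, 0 for cisplatin against normal, 1 for ischemia 2 h against cisplatin and 1 for mercuric chloride 2 h against cisplatin; that array then adds misassigned values to the spread. Under every alternative run, 0 were called in sham rats, in volume-depleted rats and for αMSH against ischemia 2 h. Leaving out 1 rat gave 0 to 1 for cisplatin against normal and 0 to 1 for mercuric chloride 8 h against 2 h. Same-numbered rats of different groups had a median correlation of deviations of 0.021 over 109 pairs, against -0.004 for other pairs, so the numbers are not taken to pair rats. Taking the mean of both Asns features in place of the brighter turned the gene's change to 1.01 for mercuric chloride 8 h against normal, 0.60 for ischemia 8 h against 2 h, 0.78 for ischemia 8 h against sham and 0.87 for mercuric chloride 8 h against sham. With the floor lowered below every Mthfd2 level, a setting chosen after seeing the data, Mthfd2 changed by 2.31 to 3.04 in the 5 groups. Synthetases higher at 8 h numbered 6 to 12 after ischemia and 2 to 11 after mercuric chloride over the settings tried, with 7 for mercuric chloride under the replicate block. That block also left 0 glutathione genes higher or lower, 0 enzymes lower, 0 chaperones and 2 kinase and translation genes higher at 8 h of mercuric chloride. It left 0 chaperones, 0 transcription factors and 1 other target higher with cisplatin, and 0 other targets higher in sham rats. These list counts were added after seeing the data.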
